A study of Mus musculus with 8 samples.

Results

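Filaggrin, its relatives and the proteases that process them were followed as 6 transcripts, Flg, Flg2, Hrnr, Rptn, Casp14 and Asprv1, chosen by gene symbol from 19126 genes in the deposited table. All 6 were found and all 6 passed the filter on low counts. The mice were C57BL/6, an inbred strain, 6 to 8 weeks old, and RNA was taken from the left ear after contact with a sensitising chemical had inflamed it. The inhibitor group was 4 mice given MMP-9-IN-1, a compound that blocks matrix metalloproteinase 9, at 10 mg/kg by intraperitoneal injection, and the vehicle group was 4 mice given the same volume of solvent (10% DMSO, 40% PEG300 and 50% PBS). Both groups received dinitrofluorobenzene (DNFB), the sensitiser, as 25 µL of a 0.3% solution on day 1 and as 10 µL of a 0.25% solution on the left ear from day 6, and treatment went on for 4 days. The comparison asks how the compound alters transcripts of the inflamed ear. No ear free of DNFB was part of the comparison, and a whole ear also holds dermis, cartilage, muscle, fat and immune cells.

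Filaggrin is made by granular keratinocytes, the last living cells of the epidermis, as a long precursor of repeated units stored in keratohyalin granules. Proteases cut the precursor into monomers that bundle keratin filaments, and the monomers are later broken down to the amino acids that hold water in the cornified layer. Filaggrin-2 (Flg2), hornerin (Hrnr) and repetin (Rptn) belong with filaggrin to the fused-type S100 proteins, which join a calcium-binding head to a repeat-rich tail. Caspase-14 (Casp14) is an epidermal caspase that takes part in the breakdown of filaggrin. The retroviral-like aspartic protease SASPase (Asprv1) cuts the linker between filaggrin units in mouse epidermis.

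The 4 fused-type S100 genes lie next to each other on mouse chromosome 3, in the order Flg2, Flg, Hrnr and Rptn, with Crnn before and Tchh after them in the RefSeq table of protein-coding genes, while Casp14 is on chromosome 10 and Asprv1 on chromosome 6. The start regions of the 4 neighbours are shown because they are the gene cluster that holds filaggrin. Each sequence runs from 250 bases before to 50 bases after the RefSeq gene start in build GRCm38.p6, which is not the build named for the counts (GRCm39). Capitals mark matches on either strand to TGANTCA or to TATAA, the core of the TATA box. TGANTCA (N is any base) is looser than the motif of AP-1 transcription factors, which has C or G at N.
Flg2 (chr3:93197023-93197322, + strand): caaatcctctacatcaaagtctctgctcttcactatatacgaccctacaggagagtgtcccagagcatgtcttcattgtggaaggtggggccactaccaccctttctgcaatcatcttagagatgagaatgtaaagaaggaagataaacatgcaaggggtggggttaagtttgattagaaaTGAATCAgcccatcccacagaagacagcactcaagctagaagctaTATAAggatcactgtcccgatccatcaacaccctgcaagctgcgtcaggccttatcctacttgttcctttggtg
Flg (chr3:93273296-93273595, + strand): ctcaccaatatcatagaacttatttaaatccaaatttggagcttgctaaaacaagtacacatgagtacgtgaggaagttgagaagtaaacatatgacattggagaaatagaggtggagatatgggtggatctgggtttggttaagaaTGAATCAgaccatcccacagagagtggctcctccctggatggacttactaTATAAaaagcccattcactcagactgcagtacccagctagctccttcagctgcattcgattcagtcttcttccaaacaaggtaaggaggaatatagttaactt
Hrnr (chr3:93319499-93319798, + strand): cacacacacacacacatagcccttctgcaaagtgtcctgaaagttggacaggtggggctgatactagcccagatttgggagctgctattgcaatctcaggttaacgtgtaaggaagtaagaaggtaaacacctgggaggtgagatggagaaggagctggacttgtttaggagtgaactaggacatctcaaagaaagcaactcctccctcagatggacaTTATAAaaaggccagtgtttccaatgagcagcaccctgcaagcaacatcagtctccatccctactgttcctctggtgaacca
Rptn (chr3:93393449-93393748, + strand): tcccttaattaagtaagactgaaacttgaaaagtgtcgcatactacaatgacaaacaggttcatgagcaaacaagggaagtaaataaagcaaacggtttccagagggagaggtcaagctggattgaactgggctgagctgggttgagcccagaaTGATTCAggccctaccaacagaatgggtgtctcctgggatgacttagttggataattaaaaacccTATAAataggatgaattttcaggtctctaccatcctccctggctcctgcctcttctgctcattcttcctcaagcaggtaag
TGANTCA was present in Flg (103 bases before the start), Flg2 (69 bases) and Rptn (96 bases). Its centre base was A in Flg and Flg2 and T in Rptn, so none had the C or G of the AP-1 motif. TATAA was present in all 4, at 53 bases before the start in Flg, 24 in Flg2 and 31 in Hrnr and Rptn. In Hrnr the TATAA match overlaps its own antisense match by all but 1 base, so both are joined in the capitals. Over 32851 start regions of the same length, TGANTCA was found in 7.8%, TATAA in 24.9% and both in 2.7%. A sense TATAA beginning 40 to 21 bases before the start was found in 3.5%, and the match in Flg lies outside that window. Flg and Flg2 share a run of 12 bases, CCATCCCACAGA, which follows the TGANTCA match after a gap of 2 bases in each, and Flg2 and Hrnr share another run of 12 bases, CACCCTGCAAGC, next to the start. No match to either motif is in the windows of Casp14 and Asprv1, which says only that these letters are not there.

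The libraries held 13863145 to 18512200 reads, and 17028 to 17629 genes had at least 1 read. Keratins of the basal epidermis were abundant in every ear, with Krt14 at 8968 to 13916 TPM (a deposited unit scaled to gene length and library size) in inhibitor ears and 5974 to 14661 TPM in vehicle ears. Among inhibitor ears mice 3 and 4 were the closest pair (chi-square of their counts per degree of freedom 43.1), and mouse 1 was nearer to mouse 3 (76.04) than to mouse 2 (91.1). Vehicle ears fell into mice 1 and 2 (30.6) and mice 3 and 4 (22.8), with 243 to 289 between these pairs. Of 15096 genes tested, 19.5% were higher in every ear of mice 3 and 4 than in every ear of mice 1 and 2, and 18.4% were lower. The labels do not say what a shared mouse number means, so differences of the members and medians of the lists are also given within mice 1 and 2 and within mice 3 and 4, where a fit could be made.

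Asprv1 and Casp14, the proteases, were the most abundant of the 6 transcripts in every ear, and Flg2 the least. On the TPM scale Asprv1 averaged 115 ± 76.1 TPM in inhibitor ears and 238 ± 106 TPM in vehicle ears (SD, n = 4 each). Casp14 averaged 31.6 ± 22.2 TPM in inhibitor ears and 45.2 ± 41.7 TPM in vehicle ears. Flg averaged 15.8 ± 14.7 TPM in inhibitor ears and 19.3 ± 22.8 TPM in vehicle ears. These levels left Flg below both proteases in each group. Rptn averaged 13.2 ± 12.4 TPM in inhibitor ears and 10.7 ± 10.6 TPM in vehicle ears, Hrnr 3.82 ± 3.24 TPM in inhibitor ears and 4.34 ± 4.43 TPM in vehicle ears, and Flg2 2.54 ± 2.48 TPM in inhibitor ears and 3.06 ± 3.50 TPM in vehicle ears. The gap between the means of Asprv1 and Casp14 was wider than the SD of either in both groups, and for each other pair of neighbours in this order it was narrower than the SD of the more abundant gene. Flg and Rptn were neighbours whose order changed between ears, with Rptn above Flg in inhibitor mouse 1 and vehicle mouse 1. Flg, Flg2 and Hrnr carry long runs of near-identical repeats, so how reads of 50 bases were assigned within and between them is uncertain.

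None of the 6 transcripts differed between inhibitor and vehicle ears beyond the spread between mice. In edgeR's quasi-likelihood test, with Benjamini-Hochberg adjustment over all genes and a threshold of 0.05, 0 of the 6 were called, beside 0 (0%) of 15096 genes. Before adjustment 157 genes had a p under 0.05 in edgeR, 293 in DESeq2 and 296 in limma-voom, and DESeq2 and limma-voom also called 0 genes. The groups did not overlap for 1.19% of genes and for 0 of the 6, judged on scaled read counts (CPM, below) rather than on TPM. The 6 had a median log2 fold change of -0.25, with 5 lower and 1 higher estimate with the inhibitor, against a median of 0.026 over all tested genes. With the mouse number as a block the median of the 6 was -0.022, with 3 of 6 lower. Fewer cells of a type and less RNA per cell cannot be told apart in these whole-ear libraries.

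Flg, the filaggrin precursor, had 3.29, 70.9, 176 and 268 CPM (read counts scaled to library size with TMM factors) in inhibitor mice 1 to 4, against 11.3, 21.5, 199 and 389 CPM in vehicle mice 1 to 4. The groups overlapped, and in both groups mice 3 and 4 were high and mouse 1 was lowest. The log2 fold change was -0.26 (SE 1.30, 95% interval -3.23 to 2.71, edgeR adjusted p = 0.999). The interval therefore holds both a large fall and a large rise. Among mice 1 and 2 the estimate was 1.19 (SE 1.32), and among mice 3 and 4 it was -0.43 (SE 0.37). These values rest on 48 reads in inhibitor mouse 1 and on 7632 reads in vehicle mouse 4.

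Flg2, whose protein is also a source of filaggrin-like peptides in the cornified layer, was close to the limit of detection in 3 ears. It had 0.548, 4.04, 23.5 and 18.2 CPM in inhibitor mice 1 to 4, against 0.404, 0.413, 29.5 and 24.03 CPM in vehicle mice 1 to 4. Inhibitor mouse 1 gave 8 reads and vehicle mice 1 and 2 gave 6 reads each. Mice 3 and 4 were high in both groups and the groups overlapped. Its log2 fold change over all 8 ears was -0.23, with an SE of 1.41 and an edgeR adjusted p of 0.999, and it was -0.38 (SE 0.20) among mice 3 and 4. Among mice 1 and 2 alone Flg2 did not pass the filter on low counts.

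Hrnr, a cornified envelope protein, had 3.77, 11.3, 45.4 and 36.8 CPM in inhibitor mice 1 to 4, against 2.69, 6.13, 48.8 and 51.7 CPM in vehicle mice 1 to 4. The same ears were high as for Flg2, and the groups overlapped. Over all 8 ears the estimate was -0.17 (log2, SE 1.02) at an edgeR adjusted p of 0.999, with 0.78 (SE 0.70) among mice 1 and 2 and -0.31 (SE 0.15) among mice 3 and 4.

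Rptn, an envelope precursor of the granular layer, was the one member with a higher estimate. It had 3.08, 12.5, 48.3 and 65.7 CPM in inhibitor mice 1 to 4, against 12.5, 5.30, 27.9 and 59.99 CPM in vehicle mice 1 to 4. Mice 3 and 4 were high in both groups here as well. For the inhibitor against vehicle the log2 difference was 0.29 (SE 0.96), at an edgeR adjusted p of 0.999, with -0.19 (SE 0.79) among mice 1 and 2 and 0.35 (SE 0.38) among mice 3 and 4.

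Casp14 had 9.66, 33.4, 53.0 and 78.1 CPM in inhibitor mice 1 to 4, against 17.6, 31.5, 68.9 and 134 CPM in vehicle mice 1 to 4. It placed the 8 ears in the same order as Flg did, from inhibitor mouse 1 at the bottom to vehicle mouse 4 at the top. The groups overlapped. The log2 fold change was -0.53 (SE 0.74, 95% interval -2.22 to 1.15, edgeR adjusted p = 0.999), with -0.18 (SE 0.66) among mice 1 and 2 and -0.66 (SE 0.36) among mice 3 and 4.

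Asprv1 had the largest estimate of the 6 and a profile of its own. It had 13.2, 204, 103 and 113 CPM in inhibitor mice 1 to 4, against 310.4, 457, 109.6 and 155 CPM in vehicle mice 1 to 4. Vehicle mice 1 and 2, where Flg was low, were the highest, and inhibitor mouse 1 was far below all other ears. The log2 fold change was -1.25 (SE 0.74, 95% interval -2.96 to 0.45, edgeR adjusted p = 0.999). It was -1.81 (SE 1.22) among mice 1 and 2 and -0.32 (SE 0.19) among mice 3 and 4, and it was -0.88 (SE 0.53) without inhibitor mouse 1. Asprv1 was lower in the inhibitor ear than in the vehicle ear of the same mouse number in 4 of 4 pairs. The labels do not say that equal numbers belong together, and the share of all genes lower in 4 of 4 is not given. The count is therefore a description only. With the mouse number as a block the estimate was -1.37 (SE 0.79, edgeR adjusted p = 0.717). A test of whether the group effect differed between these pairs of mouse numbers called 0 of 15096 genes (0%) in edgeR, where 2659 had an unadjusted p under 0.05, with adjusted p-values over the 6 from 0.257 for Flg2 to 0.815 for Casp14. Among the 6, Flg2 alone had an unadjusted p under 0.05 in that test, 1 of 6 beside 2659 of 15096 genes. Its difference was -2.85 (log2 effect in mice 3 and 4 minus that in mice 1 and 2). That value rests on 8 and 65 Flg2 reads in inhibitor mice 1 and 2 and 6 in each of vehicle mice 1 and 2.

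**Figure D1:**
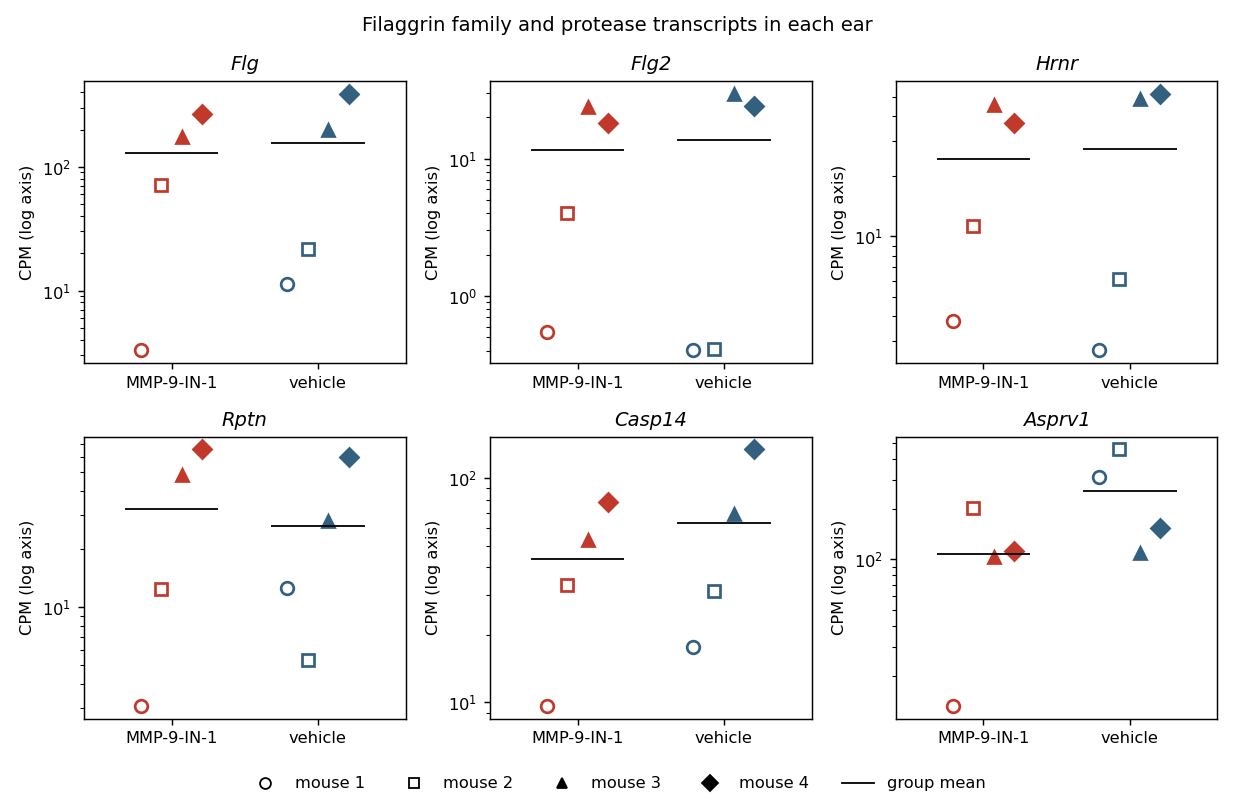
CPM of the 6 transcripts in each ear on a log axis, with MMP-9-IN-1 ears left and vehicle ears right of each panel, open symbols for mice 1 and 2, filled symbols for mice 3 and 4 and a line at the group mean. Filled symbols lie above open ones for Flg, Flg2, Hrnr, Rptn and Casp14, and for Asprv1 the highest ears are vehicle mice 1 and 2 at 310.4 and 457 CPM.

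**Figure D2:**
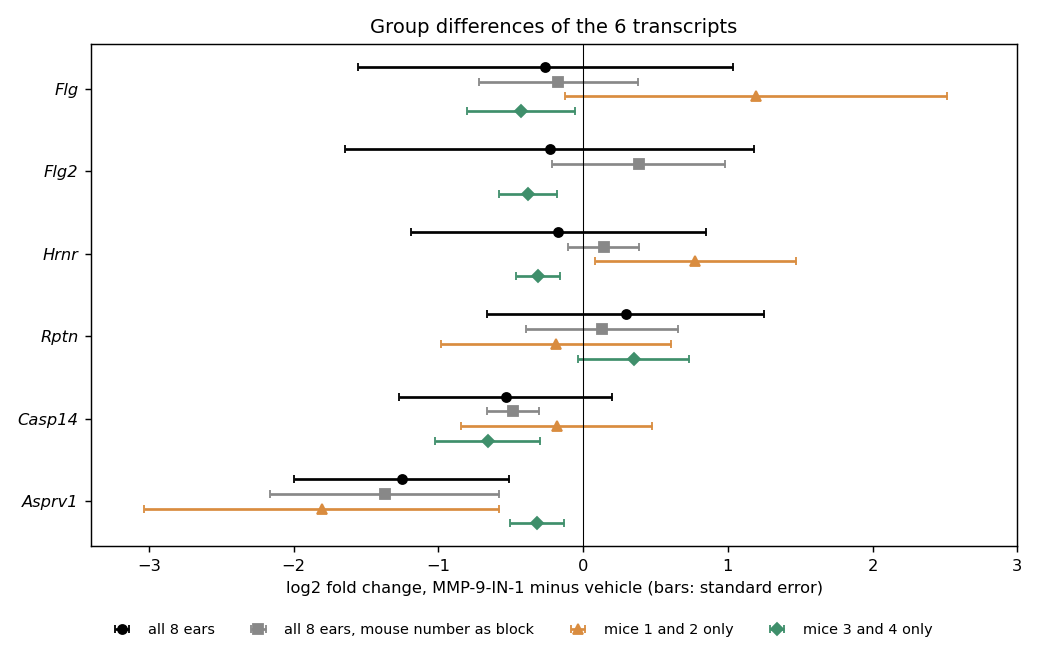
log2 fold changes of the 6 transcripts, MMP-9-IN-1 minus vehicle, with bars of 1 standard error, for all 8 ears, for all 8 with the mouse number as a block, and within each pair of mouse numbers. Flg2 has no value for mice 1 and 2, and Asprv1 has the most negative estimate, at -1.25 over all 8 ears.

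The spread among ears of 1 group was wider than any difference between the groups for the 4 fused-type S100 genes and Casp14. For Asprv1 the SD of log2 CPM was 1.72 among inhibitor ears and 0.935 among vehicle ears, beside a log2 fold change of -1.25. Flg ranged 123-fold over the 8 ears on the TPM scale, Flg2 112-fold, Hrnr 24.7-fold, Rptn 21.7-fold, Casp14 14.3-fold and Asprv1 24.5-fold. For 5 of the 6, all but Asprv1, every ear of mice 3 and 4 was above every ear of mice 1 and 2. The share of all tested genes was 19.5%. Since the division by mouse number was known when the members were chosen, this count is a description. In mean log2 CPM, mice 3 and 4 exceeded mice 1 and 2 by 3.97 for Flg, 4.66 for Flg2, 3.11 for Hrnr, 2.73 for Rptn and 1.93 for Casp14. For Asprv1 the same difference was 1.05 within the inhibitor group and -1.53 within the vehicle group.

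The ratio of protease to substrate transcripts varied widely from ear to ear. Asprv1 transcripts stood at 37.2, 26.4, 5.36 and 3.85 for each Flg transcript (ratio of TPM) in inhibitor mice 1 to 4, against 253, 195, 5.05 and 3.65 in vehicle mice 1 to 4. Mice 3 and 4 of both groups were alike in this ratio and below all ears of mice 1 and 2, and the groups overlapped. The ratio of Casp14 to Flg spanned less, with 17.8, 2.82, 1.81 and 1.75 in the inhibitor ears and 9.53, 8.79, 2.07 and 2.07 in the vehicle ears. Asprv1 made up 49.9% to 84.8% of the summed TPM of the 6 in inhibitor ears and 48.6% to 94.7% in vehicle ears. That sum was 24.4 TPM in inhibitor mouse 1 and 210.3 to 385 TPM in the other 7 ears.

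Krt1 and Krt10, the keratins of the spinous and granular layers that filaggrin bundles, were also higher in every ear of mice 3 and 4 than in any ear of mice 1 and 2. Their summed level was 115, 337, 999 and 871 TPM in inhibitor mice 1 to 4, against 67.3, 113, 1463 and 1555 TPM in vehicle mice 1 to 4. Per 100 TPM of these keratins, Hrnr stayed between 0.456 and 0.725 TPM in all 8 ears, a span of 1.59-fold. Flg was between 1.65 and 3.84 TPM per 100 in 7 ears and at 0.347 in inhibitor mouse 1. Casp14 was between 3.58 and 6.70 TPM per 100 in 6 ears and at 15.7 and 14.6 in vehicle mice 1 and 2. The other members spread more widely, with Flg2 at 0.0533 to 0.522 TPM per 100 (9.78-fold), Rptn at 0.806 to 6.11 (7.58-fold) and Asprv1 at 8.71 to 417 (47.9-fold). Krt5, a basal keratin, varied only 2.96-fold on the TPM scale.

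Neutrophil and red blood cell markers were high in the same 3 ears as Asprv1. The 8 markers that are on no other list, among them Ly6g and Retnlg, summed to 235, 2109, 91.1 and 181 TPM in inhibitor mice 1 to 4, against 5082, 3192, 87.1 and 136 TPM in vehicle mice 1 to 4. Vehicle mice 1 and 2 and inhibitor mouse 2 were highest both here and for Asprv1, and Asprv1 transcripts have been described in mouse neutrophils as well as in granular keratinocytes. With neutrophil markers at 87.1 to 181 TPM in mice 3 and 4, Asprv1 was still at 117 to 179 TPM there, whereas inhibitor mouse 1 had 235 TPM of the markers and 14.9 TPM of Asprv1. The full list of 10, which adds S100a8 and S100a9 that activated keratinocytes also make, summed to 3090 to 23493 TPM in inhibitor ears and 3537 to 35602 TPM in vehicle ears. Estimates for the 10 were all below 0 (median log2 fold change -1.32, 0 called), and none was at 0 TPM in any ear. The direction turned in limma-voom with quality weights, where the median was 0.074 with 4 of 10 lower, and among mice 3 and 4, where it was 0.23 with 3 of 7 lower. The 6 listed red blood cell markers summed to 220.1, 6036, 1082 and 1079 TPM in inhibitor mice 1 to 4, against 21907, 22507, 259 and 952 TPM in vehicle mice 1 to 4. Inhibitor mouse 1 was the lowest ear, as for Asprv1. Their 5 tested genes had a median of -2.64, with 5 of 5 lower and 0 called, which turned to 0.76 in limma-voom and to 0.73 among mice 3 and 4, each with 0 of 5 lower. Sprr1b, an envelope precursor gene of activated keratinocytes, had 65.9, 313, 167 and 154 TPM in inhibitor mice 1 to 4. In vehicle mice 1 to 4 it had 850, 2484, 156 and 211 TPM. Its 3 highest ears and its lowest ear were those of Asprv1. Krt6a, a keratin of the same list, instead had more in inhibitor mouse 1 (1256 TPM) than in inhibitor mouse 2 (815 TPM). The part of neutrophils, blood or activated keratinocytes in the Asprv1 values was not tested.

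Other tissues of the ear gave 0 calls, and the part of their share in the members' values was not tested. Skeletal muscle markers had 10 of 10 higher estimates (median 1.11) and kept a median above 0 among mice 1 and 2 (0.905) and among mice 3 and 4 (1.14). Sebaceous gland markers had 9 of 10 higher (median 0.39), with a median of 1.04 among mice 1 and 2 and -0.19 among mice 3 and 4. Melanocyte markers had 6 of 7 lower (median -0.497), and 2 of the 7, Pmel and Mlana, had groups that did not overlap in CPM, beside 1.19% of all genes. On the TPM scale Mlana overlapped, with 9.02 TPM in inhibitor mouse 3 and 8.56 TPM in vehicle mouse 1, and Pmel did not. Estimates were higher for 6 of 8 fibroblast markers (median 0.16), 6 of 8 macrophage markers (0.45), 7 of 8 fat markers (0.47) and 4 of 6 hair follicle markers (0.062). The direction turned for fibroblasts in limma-voom (-0.14), with the block (-0.069) and among mice 1 and 2 (-0.61). For hair follicle markers it turned among mice 1 and 2 (-0.034) and among mice 3 and 4 (-0.16). Of the 13 listed hair follicle markers, Krt25, Krt27, Krt71, Krt73, Krt35 and Shh were under the filter on low counts. Without that filter the hair follicle median was -0.33, with 8 of 12 lower.

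**Figure D3:**
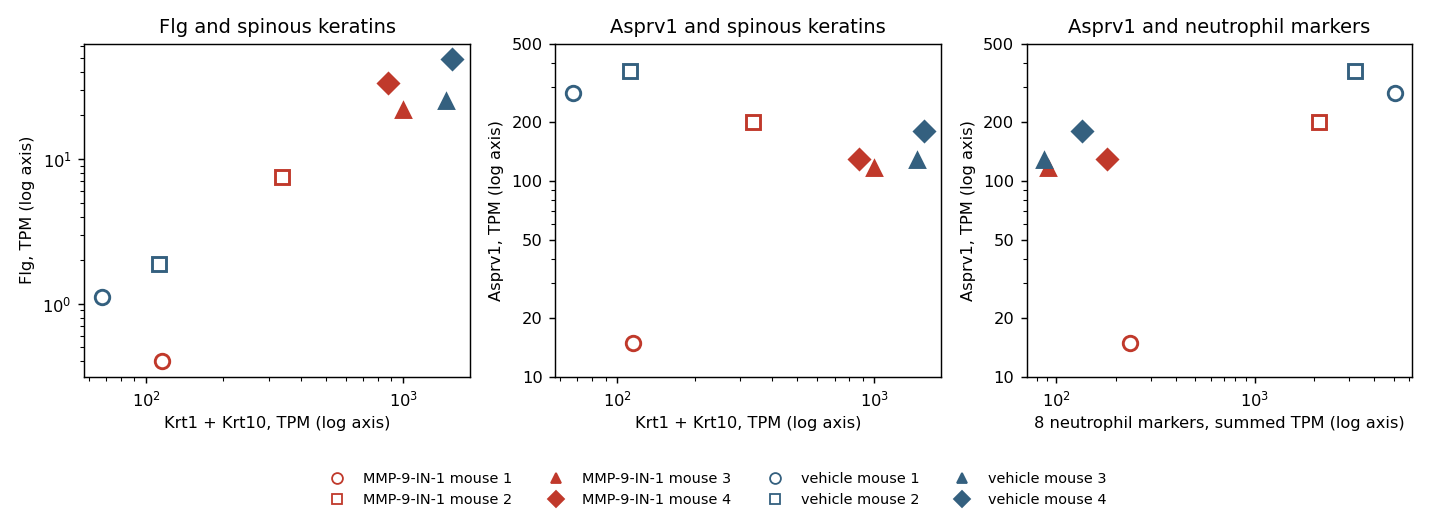
TPM of Flg (left) and Asprv1 (middle) against the summed TPM of Krt1 and Krt10, and of Asprv1 against the summed TPM of 8 neutrophil markers (right), all on log axes with 1 point per ear. Flg is high where the keratins are high, while Asprv1 is highest in the 2 vehicle ears with the least Krt1 and Krt10 and is lowest, at 14.9 TPM, in inhibitor mouse 1.

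Other proteases of filaggrin maturation were tested as a list of 11, of which 10 passed the filter, 0 were called, 3 had a higher and 7 a lower estimate (median log2 fold change -0.13). Klk5, a kallikrein that cuts filaggrin and the corneodesmosomes, had 5.21, 9.33, 12.01 and 9.32 CPM in inhibitor mice 1 to 4, against 20.05, 20.9, 13.2 and 14.5 CPM in vehicle mice 1 to 4. All 4 inhibitor ears were below all 4 vehicle ears, with a log2 fold change of -0.93 (SE 0.28, edgeR adjusted p = 0.999), and it was the 1 gene of the 10 whose groups did not overlap, beside 1.19% of all genes. Among mice 1 and 2 it was at -1.49 (SE 0.34), and among mice 3 and 4 at -0.40 (SE 0.20). Klk7, another kallikrein of the cornified layer, had -0.53 (SE 0.33), and Blmh, the bleomycin hydrolase that ends filaggrin breakdown, had -0.25 (SE 0.14), and the groups overlapped in each. Klk7 was at -1.27 (SE 0.29) among mice 1 and 2 and at 0.26 (SE 0.22) among mice 3 and 4. Of these 10 genes 2 were higher in every ear of mice 3 and 4 and 2 were lower, shares near the 19.5% and 18.4% of all genes.

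Inhibitors of these proteases and a list of genes for deimination and histidine breakdown gave no call either. Of 7 tested protease inhibitors 5 had a lower estimate (median -0.078), and the median was 0.21 in the pair of mice 1 and 2 and -0.18 in the pair of mice 3 and 4. For Cst6, which encodes the cathepsin inhibitor cystatin M/E, the log2 fold change was -0.90 with an SE of 0.29, at -1.51 among mice 1 and 2 and -0.22 among mice 3 and 4. Spink5, which encodes the kallikrein inhibitor LEKTI, was at -0.71 (SE 0.48) and Spink12 at 0.24 (SE 0.60). The list for deimination and histidine breakdown also holds Tmem79, which belongs to neither. Of its 5 tested genes 3 had a lower estimate (median -0.11). The median was 0.15 in the pair of mice 1 and 2 and -0.25 in the pair of mice 3 and 4. Padi4 had -1.002 (SE 0.78), Padi1 had -0.36 (SE 0.91) and Padi2 had 0.23 (SE 0.60), all peptidylarginine deiminases, and each had an edgeR adjusted p of 0.999. Of the other fused-type S100 genes, Crnn and Tchhl1 were under the filter, and Tchh, the trichohyalin gene of the hair follicle, had -0.86 (SE 0.50) with 8.91 CPM on average in inhibitor ears and 16.2 CPM in vehicle ears.

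Structural genes of the granular and cornified layers gave 0 calls, with 3 higher and 14 lower estimates of 17 tested and a median log2 fold change of -0.24, which was -0.15 in the pair of mice 1 and 2 and -0.23 in the pair of mice 3 and 4. Tgm3, a transglutaminase of the envelope, had -0.79 (SE 0.34), Cnfn, the cornifelin gene, -1.23 (SE 0.55) and Ivl, the involucrin gene, -0.24 (SE 0.12). In CPM the groups did not overlap for 1 of the 17, Cnfn, beside 1.19% of all genes. They were apart narrowly, at 35.2 CPM in inhibitor mouse 3 and 35.4 CPM in vehicle mouse 3. On the TPM scale Cnfn overlapped, with 109 TPM in inhibitor mouse 3 and 100.1 TPM in vehicle mouse 1. Of these 17 genes 7 were higher in every ear of mice 3 and 4, beside 19.5% of all genes, among them Lor, the loricrin gene, at 8.91, 20.2, 67.7 and 46.7 CPM in inhibitor mice 1 to 4 and 15.1, 20.5, 80.1 and 77.5 CPM in vehicle mice 1 to 4. Spinous keratin and desmosome genes, a list that also holds Calm4, Calml3 and Skint3, had 2 higher and 8 lower estimates of 10. The list had a median of -0.27 and 6 genes higher in every ear of mice 3 and 4. Their median turned to 0.35 among mice 1 and 2, with 2 of 9 lower, and was -0.42 among mice 3 and 4. Calm4, a calmodulin-like protein gene of differentiating keratinocytes, had -0.68 (SE 0.26), Pkp1 had -0.20 (SE 0.22), Calml3 had 0.20 (SE 0.24), Krt1 had -0.34 (SE 0.96) and Krt10 had -0.58 (SE 1.08).

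Transcription factors of keratinocyte differentiation gave 0 calls of 19, with 8 higher and 11 lower estimates and a median of -0.096, which was 0.0034 in the pair of mice 1 and 2 and -0.17 in the pair of mice 3 and 4. The log2 fold change was -0.56 for Foxn1 (SE 0.20), -1.57 for Grhl3 (SE 0.64) and -1.22 for Cebpb (SE 0.67), each with an edgeR adjusted p of 0.999. Foxn1 was the 1 of the 19 whose groups did not overlap in CPM, beside 1.19% of all genes. On the TPM scale it overlapped, with 4.67 TPM in inhibitor mouse 1 and 3.63 TPM in vehicle mouse 2. Cytokines and receptors known to lower filaggrin in cultured keratinocytes, listed together with Stat3 and Stat6, had 3 higher and 10 lower estimates of 13 tested (median -0.27, 0 called). Of the 13, 6 were lower in every ear of mice 3 and 4, beside 18.4% of all genes. Their direction turned in limma-voom with quality weights (median 0.084, 3 of 13 lower) and among mice 3 and 4 (median 0.059, 5 of 14 lower), and the median was -0.55 among mice 1 and 2. Tslp, an epithelial cytokine, had -2.26 (SE 1.13), Tnf had -1.51 (SE 1.17) and Il22ra1, an interleukin-22 receptor chain, -0.77 (SE 0.34). The type 2 and type 17 cytokines Il4, Il13, Il31, Il17a, Il22 and Il25 were under the filter, with 34, 61, 3, 11, 24 and 5 reads over all 8 ears. For genes of activated keratinocytes 16 of 16 estimates were lower (median -1.24, 0 called), among them the envelope precursor gene Sprr1b at -2.73 (SE 1.04) and the interleukin-36 genes Il1f6 at -1.43 (SE 0.53) and Il1f9 at -1.58 (SE 0.68). In limma-voom with quality weights 9 of 16 were lower (median -0.11), among mice 3 and 4 also 9 of 16 (median -0.17), and among mice 1 and 2 all 16 (median -1.48). Basal keratinocyte markers had 5 higher and 5 lower estimates (median 0.025; 0.34 among mice 1 and 2, -0.31 among mice 3 and 4), with Lamb3 at -0.36 (SE 0.18), Krt5 at 0.11 (SE 0.31) and Itgb4 at 0.14 (SE 0.48).

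**Figure D4:**
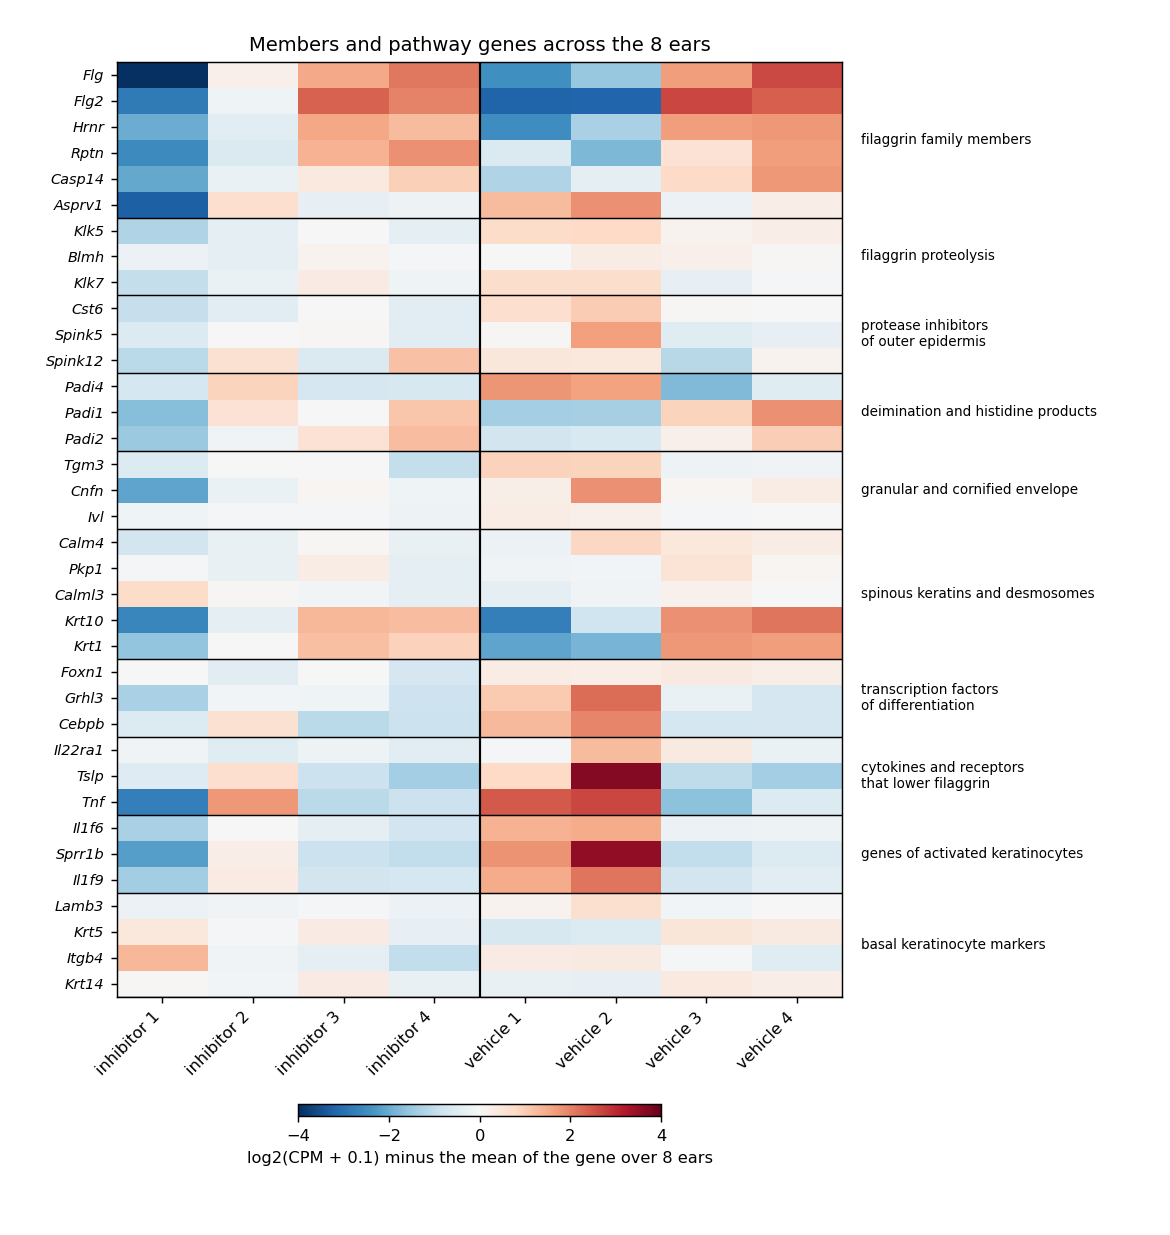
log2(CPM + 0.1) of each gene minus its mean over the 8 ears, for the 6 members, up to 3 genes per list by smallest p, plus Krt1, Krt10, Krt5 and Krt14, with MMP-9-IN-1 ears left of vehicle ears. Flg, Flg2, Hrnr, Rptn, Casp14, Krt1 and Krt10 are blue in mouse 1 of both groups and red in mice 3 and 4, while Asprv1 and Tnf are red in vehicle mice 1 and 2.

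The genes most like each member were ranked by the root mean square difference between log2 CPM profiles over the 8 libraries, each profile centred on its own mean, among 10790 genes with a mean of at least 10 CPM. For Hrnr they were Gm94 (0.20), Krt10 (0.34) and Krt1 (0.36). Flg was nearest to Lce1m, a late cornified envelope gene (0.57), to the chemokine gene Ccl21a (0.62) and to Gm10591 (0.65), and Ccl21a has near-identical copies that may share reads. Flg2 was nearest to Fzd9 (0.61), Alox12e, an epidermal lipoxygenase gene (0.62), and the T cell receptor gene Cd3g (0.71). Casp14 was nearest to Lce6a (0.32), Ccl19 (0.36) and Slamf7 (0.36).

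Rptn was nearest to Cytl1 (0.34), Chad (0.34) and Cnmd (0.36), of which Chad and Cnmd are on the list of cartilage markers. The 8 listed cartilage markers summed to 48.7 to 527 TPM in inhibitor ears and 63.03 to 434 TPM in vehicle ears, with 4 higher and 2 lower estimates of 6 tested, 0 called, and a median of 0.31 that was -0.44 in the pair of mice 1 and 2 and 0.42 in the pair of mice 3 and 4. Matn1 and Matn3 were under the filter, with 13 and 26 reads over all 8 ears. The part of cartilage in the Rptn values was not tested. Asprv1 was nearest to Cd69, a marker of activated leukocytes (0.31), G0s2 (0.37) and Tent5c (0.43). Among the members the closest pairs were Rptn and Casp14 (0.75) and Hrnr and Casp14 (0.78), while Asprv1 differed from the other 5 by 1.51 to 2.96 on this log2 scale.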

How the data were processed

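Per the labels' protocols, mRNA was purified on oligo(dT) beads and read from 1 end for 50 bases on the DNBSeq platform. The submitters' processing notes name HISAT and build GRCm39. Which tool counted reads, with which strand setting and annotation, is not given in the sources used here. Deposited tables hold expected counts, TPM and FPKM. The authors' FPKM (per gene length and library size) and group means were not used. Between 33.7% and 35.3% of deposited counts per library were non-integer (tolerance 1e-09), so counts were rounded.

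Genes were kept with filterByExpr (15096), scaled with TMM (factors 0.815 to 1.08) and tested with edgeR 4.0.16 on all 8 libraries with no covariate. SE was computed from the log2 fold change and the quasi-likelihood F. The titles number the mice, so libraries were taken as separate animals. Libraries of 1 group differed by more than sampling noise (chi-square per degree of freedom 22.8 to 289). Same-numbered libraries deviated together (correlations 0.397 to 0.710 across genes), so the mouse number was also fitted as a block. Correlations between differently numbered libraries are not given. The values therefore cannot tell a pairing by single mouse number from the division by pairs of mouse numbers. The labels do not state a pairing either, so the block is an alternative fit only. Alternatives used DESeq2 1.42.0, limma 3.58.1 (voom, and trend on log2 of TPM with a pseudocount of 1 or 0.1), other scalings and filters, left-out libraries and pairs of mouse numbers.

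The members, lists and alternatives were chosen with earlier results of these data known. Named genes are the 6 members, up to 3 genes of each pathway list with the smallest p, Krt1, Krt10, Krt5 and Krt14, and the 3 genes most like each member. Lor, Ly6g and Retnlg were added after their values were seen, and Krt6a is also named with values outside this rule. Other listed genes are named only to say what a list holds or which genes were under the filter. Start regions are RefSeq's, matched by symbol for 6 of 6 members.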

Additional observations from a re-analysis of the deposited data

How the results depend on the processing

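Of 130 values of the 6 transcripts under other settings, 0 passed an adjusted p of 0.05, and Casp14 with the mouse number as a block (-0.48) was the 1 value under 0.05 before adjustment. The count of genes past the threshold was 0 under every alternative run, a threshold of 0.1 included. With the block, Flg2 turned to 0.38 and Hrnr to 0.14, and the block changed no call. With the division of mouse numbers as a covariate, Flg turned to 0.37, Flg2 to 0.59 and Hrnr to 0.19. Among mice 1 and 2 only, Flg turned to 1.19, Hrnr to 0.78 and Rptn to -0.19. On log2(TPM + 1), with or without the filter, Flg turned to 0.061, Flg2 to 0.039 and Hrnr to 0.070, and on log2(TPM + 0.1) Flg2 turned to 0.51 and Hrnr to 0.27. With 1 library left out, estimates ran from -0.90 to 0.75 for Flg, -0.83 to 0.48 for Flg2, -0.66 to 0.34 for Hrnr, -0.31 to 1.09 for Rptn, -0.98 to 0.15 for Casp14 and -1.78 to -0.84 for Asprv1, which alone kept its direction throughout. Leaving out mouse number 1 of both groups, added after seeing the data, gave -0.78 for Asprv1 and -0.24 for Flg. Total counts moved the median of all genes to 0.12 and TPM + 1 with the filter to 0.15. Flg2 had no value under the 1 CPM filter or among mice 1 and 2. Of 441 list medians under the alternatives 13 moved beyond the spread between mice, and of 441 counts of lower estimates 104 moved by over 1.5 times. That spread is the SD between mice within groups, which includes the division by mouse number. A median that changed sign within that SD was not counted as moved. The cause of the moves was not tested. With 4 ears a group and a median SE of 0.26 over all genes, against 0.74 to 1.41 for the 6, differences of the size seen were not detectable.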
